A study of Rattus norvegicus with 30 samples.

Results

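Marker genes of the hippocampal subfields were followed across 30 libraries of rat dorsal hippocampus. The set holds 9 genes, taken by symbol: Wfs1, Fibcd1 and Pou3f1 for field CA1, Pcp4, Rgs14 and Amigo2 for field CA2, and Prox1, Dsp and C1ql2 for the dentate gyrus. The count table holds 17455 genes, and 8 of the 9 markers have a row in it. Dsp was not analysed here. All 8 passed the filter on low counts, which left 12547 genes for testing.

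The libraries are polyadenylated RNA from TgF344-AD rats, which the labels call alzheimer, and from wildtype rats. TgF344-AD is a transgenic rat line whose transgenes, mutated human APP among them, are driven by the mouse prion promoter, which is active in many cell types. Rats of either sex were fed chow or a western diet, and the labels name 2 cohorts without saying what separated them. The labels state no ages and no composition or duration of the diets. The male groups were wildtype on chow (replicates 4, 7, 26 and 29), wildtype on western diet (2, 5, 24 and 27), alzheimer on chow (3, 8, 25 and 30) and alzheimer on western diet (1, 6, 23 and 28). The female groups were wildtype on chow (9, 13, 15 and 20), wildtype on western diet (12, 17 and 22), alzheimer on chow (10, 14, 16 and 19) and alzheimer on western diet (11, 18 and 21). Cohort 1 holds 14 libraries and cohort 2 holds 16.

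The hippocampus is a chain of fields with distinct principal cells: granule cells of the dentate gyrus project to CA3, CA3 projects to CA1, and CA2 is a small field between them. Each field keeps its own set of expressed genes in the adult, and the markers studied here are in common use to draw the field borders. In tissue pieces taken from the whole dorsal hippocampus, a marker's share of the RNA follows both how much of a field the piece contains and how strongly its cells express the gene. A marker can also be expressed outside its field: Pcp4 is found in thalamic and cortical neurons, and Prox1 in some interneurons.

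The proteins differ widely. Wfs1 encodes wolframin, a membrane protein of the endoplasmic reticulum, Pou3f1 a transcription factor of the POU family, and Fibcd1 a membrane receptor that binds acetylated sugars. Pcp4 encodes a small peptide that binds calmodulin, Rgs14 a scaffold that regulates G protein and Ras signalling and limits plasticity in CA2, and Amigo2 an adhesion protein with leucine-rich repeats. Prox1 is the homeodomain factor that specifies granule cells, and C1ql2 encodes a secreted C1q-like protein that mossy fibre terminals release at their synapses onto CA3.

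Promoter sequences of 3 markers are shown, 1 per field, because these genes carry the results: Wfs1 and C1ql2 were lower in alzheimer rats, and Rgs14, which was not called, is the reference beside them. Each run is the 250 bases before the gene's annotated start in RefSeq (rat assembly GRCr8), read 5′ to 3′ on the gene's strand. The Wfs1 window lies at chr14:78034955-78035204 (+ strand), the C1ql2 window at chr13:34023652-34023901 (+ strand) and the Rgs14 window at chr17:9268234-9268483 (- strand). Capitals mark matches on either strand, none of which overlap, to any of 4 motifs. The GC box was searched as GGGCGG, which Sp factors are known to bind. The E-box was searched as CANNTG, the site of basic helix-loop-helix factors. The CCAAT box was searched by the letters of its name, and the octamer, a site of POU factors, as ATGCAAAT.
Wfs1: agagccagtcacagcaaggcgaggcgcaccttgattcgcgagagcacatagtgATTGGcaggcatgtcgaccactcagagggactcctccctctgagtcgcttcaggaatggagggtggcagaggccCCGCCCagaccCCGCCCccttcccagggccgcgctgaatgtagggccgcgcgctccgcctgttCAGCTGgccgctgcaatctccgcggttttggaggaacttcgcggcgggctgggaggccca
C1ql2: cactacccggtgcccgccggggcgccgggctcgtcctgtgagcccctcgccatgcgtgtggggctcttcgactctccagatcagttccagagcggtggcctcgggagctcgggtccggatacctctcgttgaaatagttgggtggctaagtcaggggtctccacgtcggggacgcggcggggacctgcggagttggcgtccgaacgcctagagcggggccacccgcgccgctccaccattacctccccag
Rgs14: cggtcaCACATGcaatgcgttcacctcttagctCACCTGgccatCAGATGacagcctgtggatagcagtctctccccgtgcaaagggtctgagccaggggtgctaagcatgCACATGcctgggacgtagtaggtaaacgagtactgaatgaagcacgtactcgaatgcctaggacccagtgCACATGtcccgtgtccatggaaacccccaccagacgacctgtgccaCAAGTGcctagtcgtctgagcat

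The Wfs1 window holds 2 GC boxes, at 112 and 123 bases before the start, with 1 E-box and 1 CCAAT box. The Rgs14 window holds 6 E-boxes and none of the other 3 motifs, and no letters of the C1ql2 window match any of the 4. Among 33469 RefSeq promoter windows of the same length, 30.47% held a GC box, 65.54% an E-box, 34.02% a CCAAT box and 1.563% the octamer. Of the 9 genes 7 had an entry; Pou3f1 and Prox1 had none. No window of the 7 held the octamer. These matches describe letters and not bound sites.

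Values are CPM, a gene's counts divided by the library's total in units of M (mega), after scaling by trimmed mean of M values (TMM). They compare libraries for 1 gene, not different genes, since they are not divided by transcript length. Library totals ran between 13.9 and 31.4 M counts, around a median of 17.8 M. The App row checks the genotype label: the 15 alzheimer libraries averaged 3294 ± 76.3 CPM (SD) and the 15 wildtype libraries 1672 ± 52.7 CPM, with no overlap. In what follows a gene is called where the Benjamini-Hochberg adjusted p of edgeR's quasi-likelihood test, over all 12547 genes, was under 0.05. Fold changes are log2 values ± the standard error (SE) of the fit. The labels do not say that each library is a separate animal, so p-values measure the spread between libraries.

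Across genotype, averaged over sex and diet, 3 of 8 markers fell in alzheimer rats and none rose. The 3 were C1ql2 of the dentate gyrus and Wfs1 and Pou3f1 of CA1. The other CA1 marker was too low to measure well, the 3 CA2 markers were not called, and Prox1, the other dentate marker, had a positive change that was not called. Over all genes 8.03% were called in either direction and 3.89% were called lower. The median log2 change was -0.02 over the 8 markers and 0.00 over all genes tested. In bulk tissue, fewer cells of a field and less RNA of the gene per cell cannot be told apart.

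**Figure D1:**
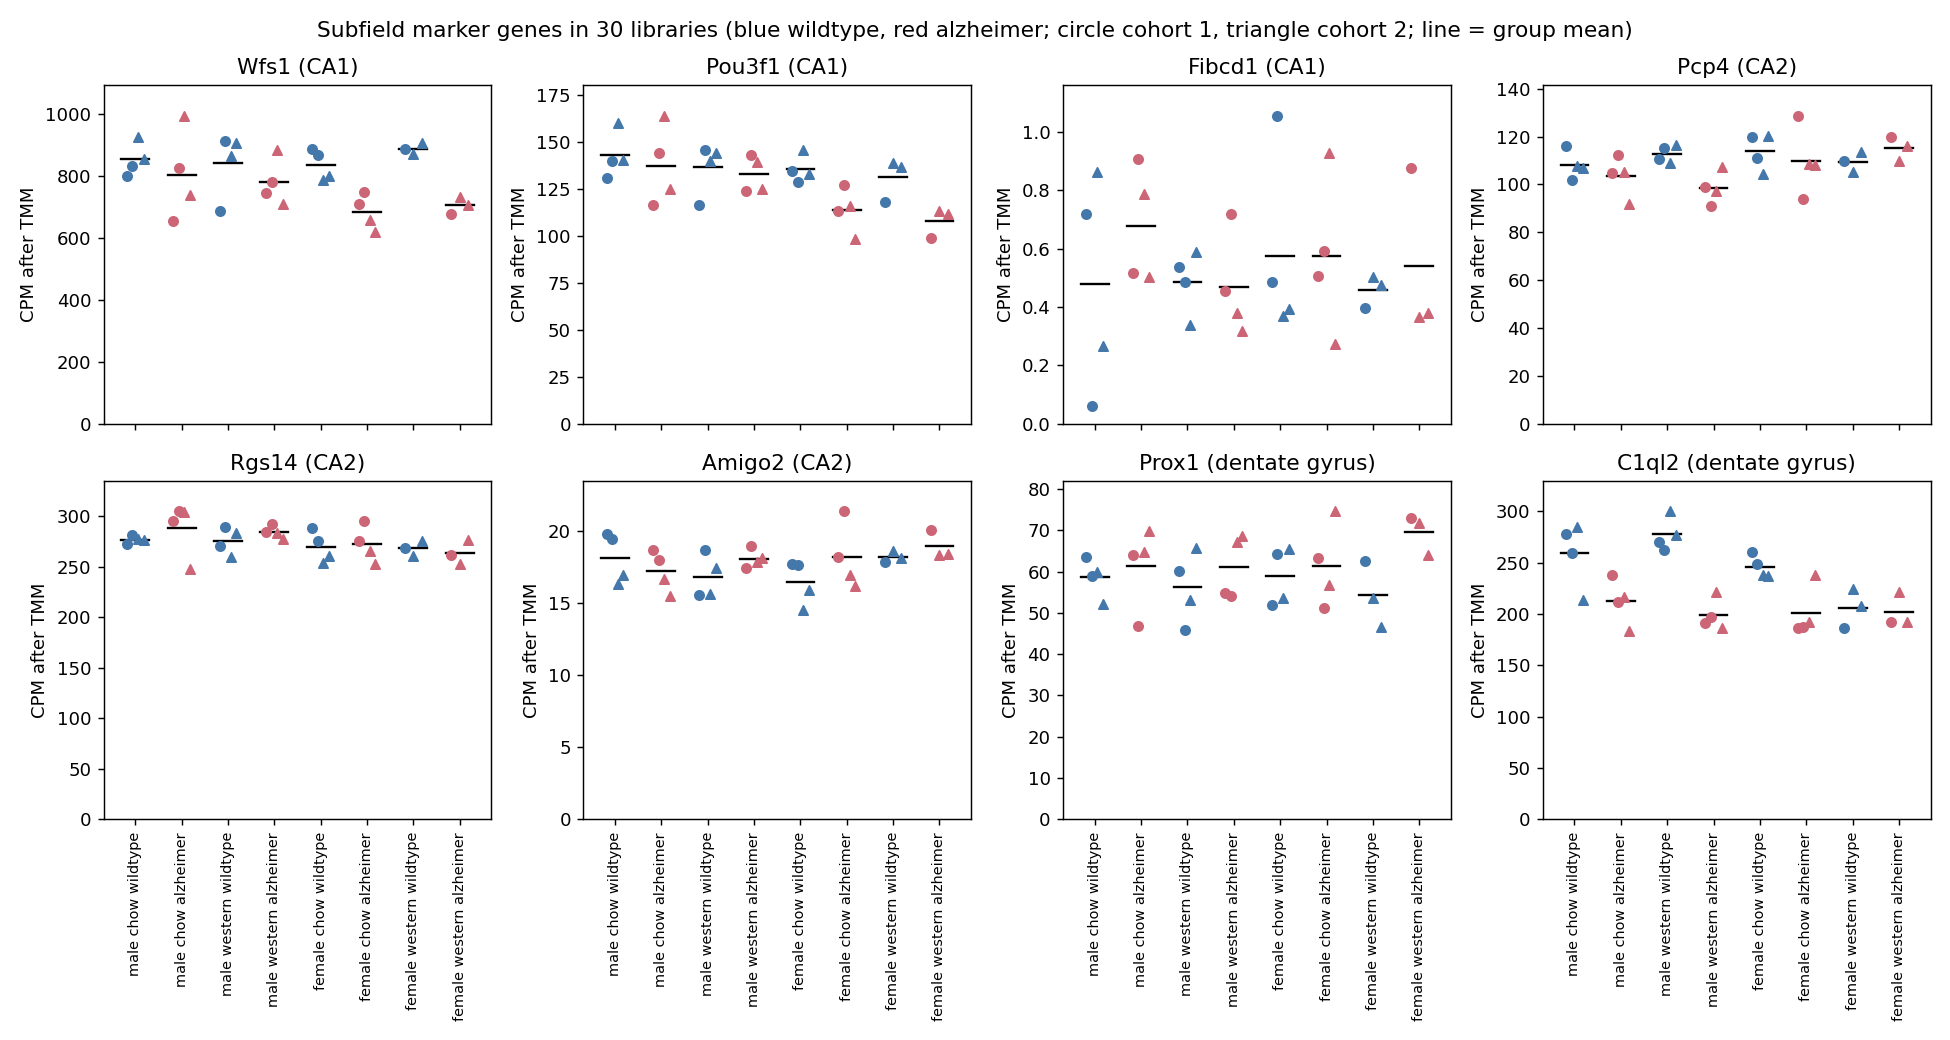
CPM after TMM of each marker (1 panel per gene, own vertical axis) in the 30 libraries, by group of sex, genotype and diet; points are libraries and horizontal bars are group means. C1ql2 libraries of alzheimer rats lie between 183 and 238 CPM, and those of wildtype rats between 186 and 300 CPM.

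C1ql2 had the smallest p of the markers. Its level was lowest 183, median 193 and highest 238 CPM in 15 alzheimer libraries, against 186, 260 and 300 CPM in 15 wildtype libraries. The ranges overlap, yet all 15 alzheimer libraries lie below the wildtype median. The log2 change was -0.27 ± 0.04 (95% interval -0.36 to -0.19, adjusted p = 5.75e-05, edgeR). C1ql2 was called on chow (-0.29 ± 0.06, adjusted p = 0.00418) and on western diet (-0.25 ± 0.06, adjusted p = 0.0179). On chow 0.901% and on western diet 3.17% of all genes were called, and C1ql2 was the marker called in each. On western diet the call was lost when replicate 11, 17 or 21 was left out (adjusted p from 0.0513 to 0.0782) and in either cohort alone. On chow it was lost in cohort 2 alone (adjusted p = 0.365).

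The groups of C1ql2 fell in a partly graded order. Male wildtype on western diet was highest at 278 ± 16.1 CPM (SD, n = 4). Male wildtype on chow followed at 259 ± 31.9 (n = 4) and female wildtype on chow at 246 ± 10.8 (n = 4). Neighbours among these 3 groups differed by less than the larger of their SDs, and a step larger than either SD came next. The other 5 groups lay between 199 and 212 CPM, closer together than their own SDs, and 1 of them, female wildtype on western diet (206 ± 19.5, n = 3), was wildtype. C1ql2 in female wildtype on western diet was 186, 208 and 225 CPM, and it was 192, 193 and 221 CPM in female alzheimer on the same diet, so these groups overlap.

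Wfs1 levels of the genotypes did not overlap in females. In 7 female alzheimer libraries its lowest, median and highest levels were 619, 707 and 748 CPM, and in 7 female wildtype libraries they were 787, 869 and 906 CPM. No female alzheimer library reached the lowest female wildtype library; among all genes tested 1.39% had such separation in females, and Wfs1 was the only marker with it. In 8 male alzheimer libraries the levels were 655, 762 and 994 CPM, and in 8 male wildtype libraries 687, 859 and 926 CPM, so males overlapped. Male alzheimer on chow replicate 25 had the highest Wfs1 of all 30 libraries. No marker was without overlap in males, where 0.335% of all genes were.

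Over both sexes Wfs1 fell by 0.20 ± 0.04 (adjusted p = 0.00313, edgeR), a decrease seen in 13 of 15 alzheimer libraries against the mean of the wildtype libraries of the same sex and diet. The order of group means ran from female wildtype on western diet (887 ± 18.5 CPM, SD, n = 3) to female alzheimer on chow (683 ± 57.0 CPM, n = 4). The 4 wildtype groups took the 4 highest places and the 4 alzheimer groups the lowest, with the female alzheimer groups at the bottom. Neighbouring groups in that order differed by less than the larger SD of each pair. The widest step was from male alzheimer on western diet (779 ± 75.1 CPM, n = 4) to female alzheimer on western diet (704 ± 27.5 CPM, n = 3). In cohort 1 alone the Wfs1 change was -0.22 and not called (adjusted p = 0.118), and in cohort 2 alone it was -0.20 (adjusted p = 0.0262). In cohort 1 each female group on western diet is 1 library.

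Pou3f1, the transcription factor gene of CA1, was lower as well. Its lowest, median and highest levels were 98.4, 113 and 127 CPM in female alzheimer and 118, 134 and 146 CPM in female wildtype libraries. In males they were 116, 132 and 164 CPM in alzheimer libraries and 116, 140 and 160 CPM in wildtype. The female groups overlap slightly and the male groups almost fully. Over both sexes the log2 change was -0.16 ± 0.04 (adjusted p = 0.0198, edgeR), with 11 of 15 alzheimer libraries below the matching wildtype mean. The call was lost in cohort 1 alone (-0.11, adjusted p = 0.588) and without the 3 libraries highest in choroid plexus markers (-0.14, adjusted p = 0.0577).

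Fibcd1 was close to the limit of detection in these libraries. It had 1 to 24 counts per library with a median of 9, or 0.06 to 1.06 CPM. Its log2 change of 0.15 ± 0.25 has a 95% interval from -0.35 to 0.66, so a fall as large as that of Wfs1 was not detectable at this depth.

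**Figure D2:**
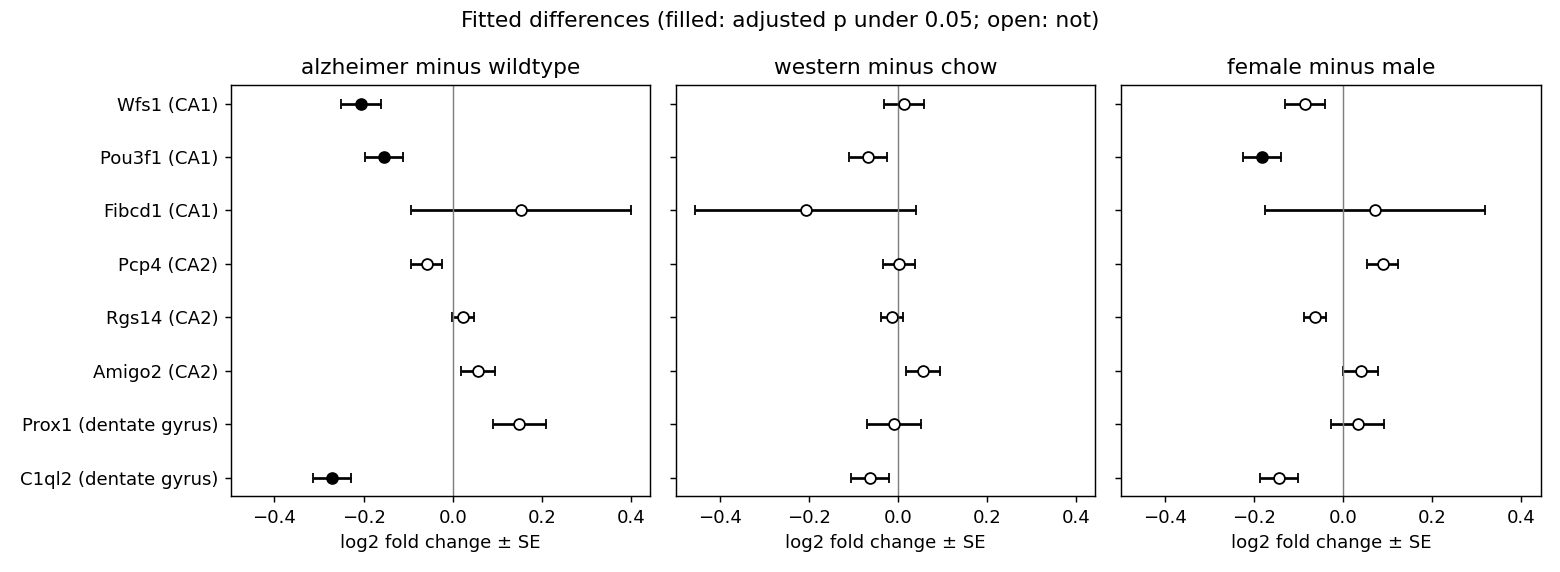
Log2 fold changes of the 8 markers ± SE for genotype (alzheimer minus wildtype), diet (western minus chow) and sex (female minus male); filled symbols are called at an adjusted p under 0.05. Filled symbols stand at C1ql2, Wfs1 and Pou3f1 for genotype and at Pou3f1 for sex, and none stands under diet.

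None of the CA2 markers was called for genotype. Rgs14 was 248, 278 and 305 CPM (lowest, median, highest) in alzheimer and 253, 275 and 289 CPM in wildtype libraries, nearly the same middle with a wider spread in alzheimer. Its log2 change was 0.02 with a 95% interval from -0.03 to 0.07. Amigo2 ran from 15.5 to 21.4 CPM in alzheimer libraries and from 14.5 to 19.8 CPM in wildtype, and its change was 0.06 with an interval from -0.02 to 0.14. Pcp4 was 90.8, 107 and 129 CPM in alzheimer libraries and 102, 111 and 120 CPM in wildtype. Its change was -0.06 with an interval from -0.13 to 0.01. These intervals leave out a fall as large as the -0.20 estimated for Wfs1. Pcp4 had the extremes of its range in alzheimer libraries, with 5 below and 1 above every wildtype library.

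Prox1, as estimated, had the opposite sign to C1ql2, although both mark granule cells. Its levels were 46.9, 64.1 and 74.6 CPM in alzheimer libraries and 45.9, 58.9 and 65.8 CPM in wildtype. The ranges overlap, with 6 alzheimer libraries above every wildtype library. The log2 change of 0.15 ± 0.06 was not called (adjusted p = 0.125, edgeR). It was called without a filter on low counts (adjusted p = 0.0475), in cohort 2 alone (0.26, adjusted p = 0.0246) and when replicate 8 (adjusted p = 0.0442) or replicate 12 (adjusted p = 0.0457) was left out, and in cohort 1 alone it was 0.02 (adjusted p = 0.954). As a description within libraries, the log2 ratio of C1ql2 to Prox1 had a median of 1.72 in alzheimer (1.39 to 2.18) and 2.14 in wildtype libraries (1.57 to 2.52). The ratio of Wfs1 to Pou3f1 hardly differed, with medians of 2.59 and 2.63.

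Further markers of the same fields were taken from lists, described by counts. For these lists and those that follow, the share over all genes for genotype was 8.03% called, and 3.89% called lower. Of 6 other CA1 markers 4 were tested and none was called, with a median log2 change of -0.09 and all 4 negative. Mpped1, the most abundant of them, changed by -0.09 ± 0.04 over both sexes (adjusted p = 0.135). In females, where 2.57% of all genes were called, it changed by -0.20 ± 0.05 and was called (adjusted p = 0.0333, edgeR). Mpped1 in females was picked after its value was seen, and 0% of all genes were called for genotype by sex. Of 10 other CA2 markers 7 were tested and 1 was called: Adcy5, an adenylyl cyclase, was lower (-0.10 ± 0.02, adjusted p = 0.00444). Their median was 0.06.

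Of 7 CA3 markers 6 were tested and 1 was called higher, the postsynaptic scaffold gene Homer3 (0.15 ± 0.05, adjusted p = 0.0358). Of 10 other dentate granule cell markers 5 were tested and 1 was called lower, the polo-like kinase gene Plk5 (-0.21 ± 0.07, adjusted p = 0.0449); their median was -0.05. C1ql3, the close relative of C1ql2, changed by 0.05 ± 0.03 and was not called (adjusted p = 0.333). Its receptor gene Adgrb3 changed by 0.01 ± 0.02 (adjusted p = 0.890). Of 7 markers of immature granule cells 6 were tested, all with a positive change, and 1 was called: Dcx, the microtubule protein of migrating young neurons, rose by 0.18 ± 0.03 (adjusted p = 0.000521).

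Partners of the encoded proteins formed a list of 15, all tested, of which 2 fell and none rose: the calmodulin genes Calm2 (-0.06 ± 0.02, adjusted p = 0.0197) and Calm3 (-0.07 ± 0.02, adjusted p = 0.0271). Calmodulin is the protein that the Pcp4 peptide binds. Among 6 genes common to excitatory neurons Neurod2 rose (0.11 ± 0.03, adjusted p = 0.0130) and Nrgn, a postsynaptic calmodulin-binding protein, fell (-0.12 ± 0.02, adjusted p = 0.00177). None of 6 tested genes of the C1q-like family and its receptor, 4 tested desmosome genes and 3 genes of the AMIGO family was called for genotype.

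Markers of other cells and neighbouring tissue were summed in the same libraries. Summed CPM of 8 oligodendrocyte markers ran from 7981 to 13047 (median 10908) in alzheimer and from 8038 to 14377 (median 12311) in wildtype libraries; 1 of 8 was called, with Mbp lower (-0.19 ± 0.06, adjusted p = 0.0419). Summed CPM of 10 choroid plexus markers ran from 5.54 to 67.0 in alzheimer and from 4.97 to 39.6 in wildtype libraries, with 0 of 7 tested markers called. Thalamus markers summed to 37.6 to 72.5 CPM in alzheimer and 38.1 to 59.5 CPM in wildtype, with 0 of 6 called. Markers of ventral hippocampus and subiculum summed to 496 to 613 CPM and 514 to 609 CPM, with 0 of 10 called. With the log2 summed oligodendrocyte markers as a further covariate, an alternative chosen after seeing the data, the changes were -0.33 for C1ql2 (adjusted p = 2.53e-08), -0.23 for Wfs1 (adjusted p = 0.00153) and -0.18 for Pou3f1 (adjusted p = 0.0125). Without the 3 libraries highest in choroid plexus markers C1ql2 changed by -0.26 (adjusted p = 0.000311) and Wfs1 by -0.20 (adjusted p = 0.0105), while Pou3f1 lost its call (-0.14, adjusted p = 0.0577). The part of the thalamic, ventral and subicular markers in these results was not tested.

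In the lists of other cell types genotype called 4 of 8 astrocyte markers (1 higher, 3 lower), 2 of 6 microglia and 2 of 5 endothelial markers (all lower), 1 of 6 markers of oligodendrocyte precursors (lower), 1 of 7 interneuron markers (lower) and 1 of 7 neocortex markers (higher). It called 0 of 5 ependymal and 0 of 5 meningeal fibroblast markers, and 8.03% of all genes (3.89% lower). Their part in the marker results was not tested.

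The genotype comparison was also made within each sex. In males, where 1.25% of all genes were called, C1ql2 was the only marker called (-0.38 ± 0.06, adjusted p = 8.94e-05, edgeR). In females, where 2.57% of all genes were called, Wfs1 (-0.31 ± 0.07, adjusted p = 0.00633) and Pou3f1 (-0.26 ± 0.06, adjusted p = 0.0162) were called. Their changes in males were smaller, -0.10 ± 0.06 for Wfs1 (adjusted p = 0.522, edgeR) and -0.05 ± 0.06 for Pou3f1 (adjusted p = 0.815, edgeR). The difference between the sexes was tested itself, and no marker was called: 0% of all genes passed by edgeR, with 528 genes and 3 markers at an unadjusted p under 0.05. The 3 were Wfs1 (females minus males -0.21 ± 0.09), Pou3f1 (-0.22 ± 0.09) and C1ql2 (0.22 ± 0.08), each with an adjusted p of 0.999 in edgeR. DESeq2 also called 0 markers in this interaction. A sex difference in the genotype effect was therefore not shown for any marker.

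**Figure D3:**
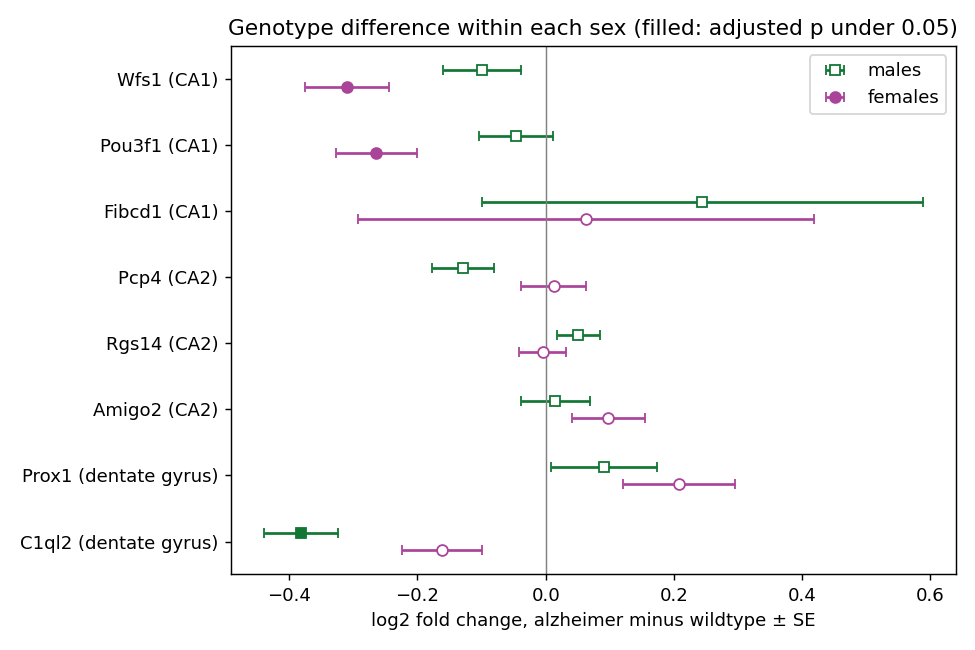
Log2 fold changes ± SE, alzheimer minus wildtype, of the 8 markers in males (squares) and females (circles), averaged over diet; filled symbols are called at an adjusted p under 0.05. Wfs1 and Pou3f1 are filled in females and C1ql2 in males, while the interaction was called for none.

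In females leaving out replicate 11 (adjusted p = 0.0566) or replicate 17 (adjusted p = 0.0554) ended the Pou3f1 call. Neither Wfs1 nor Pou3f1 was called in cohort 1 alone (adjusted p 0.151 and 0.539). C1ql2 in females was -0.16 ± 0.06 and not called (adjusted p = 0.177, edgeR). With the oligodendrocyte covariate, which was chosen after seeing the data, it was -0.25 (adjusted p = 0.00417, edgeR). In males C1ql2 levels were 183, 205 and 238 CPM in alzheimer libraries and 214, 274 and 300 CPM in wildtype. Only the male wildtype library on chow numbered 29 reached into the alzheimer range, and the other 7 male wildtype libraries lay at 260 CPM or above.

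No marker was called for diet. Over all genes 0.00797% were called for diet, and 0 of 8 markers were called by edgeR or DESeq2. At an unadjusted p under 0.05 edgeR put 5.55% of all genes and 0 markers. Wfs1 changed by 0.01 with a 95% interval from -0.08 to 0.11, C1ql2 by -0.06 (-0.15 to 0.02) and Pou3f1 by -0.07 (-0.15 to 0.02). Prox1 changed by -0.01 (-0.13 to 0.11) and Rgs14 by -0.01 (-0.06 to 0.04). Within wildtype and within alzheimer rats 0% of all genes and 0 of 8 markers were called by edgeR. DESeq2 called 0 genes in wildtype and 3 in alzheimer rats, and 0 markers in each. At an unadjusted p under 0.05 edgeR put 653 genes in wildtype and 488 in alzheimer rats, and 0 markers in each. The genotype-by-diet interaction was called at 0% of all genes and 0 of 8 markers. There edgeR put 446 genes and 0 markers at an unadjusted p under 0.05, and DESeq2 called 0 genes and 0 markers.

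Diet within each sex called few genes, 0.128% in males and 0.183% in females, and 0 of 8 markers by either tool. At an unadjusted p under 0.05 there were 0 markers in males and 1 in females, Amigo2 (0.13 ± 0.06). C1ql2 in females changed by -0.13 ± 0.06 (adjusted p = 0.523). The diet-by-sex interaction called 1.23% of all genes by edgeR, and 0 of 8 markers by edgeR and DESeq2. At an unadjusted p under 0.05 edgeR put 14.7% of all genes and 0 markers.

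Between the sexes 0.837% of all genes were called, and 1 of 8 markers: Pou3f1 was lower in females (-0.18 ± 0.04, adjusted p = 0.0323, edgeR). Its levels were 98.4, 123 and 146 CPM in 14 female and 116, 140 and 164 CPM in 16 male libraries, with 6 female libraries below every male library. This call was lost without any 1 of 9 libraries (replicates 6, 7, 10, 11, 12, 13, 20, 26 and 27), without the cohort term (adjusted p = 0.0547) and in each cohort alone (adjusted p = 0.125 in cohort 1 and 0.104 in cohort 2). C1ql2 was not called (-0.14 ± 0.04, adjusted p = 0.0911); it was called in cohort 1 alone (-0.22, adjusted p = 0.00403). Pcp4 changed by 0.09 ± 0.04 (adjusted p = 0.220) and Rgs14 by -0.06 ± 0.03 (adjusted p = 0.225). In the lists, Pdzd2 of the dentate granule cell list rose in females (0.27 ± 0.06, adjusted p = 0.0226). So did Fn1 (0.18 ± 0.04, adjusted p = 0.0231) and Nnat (0.19 ± 0.04, adjusted p = 0.0197) of the ventral hippocampus and subiculum list. Without the 3 libraries highest in choroid plexus markers the Pou3f1 change was as large (-0.18) and missed the threshold (adjusted p = 0.0690), and the count over all genes fell from 105 to 23.

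Between the cohorts 0.0877% of all genes were called, and 0 of 8 markers by edgeR or DESeq2. At an unadjusted p under 0.05 there were 12.6% of all genes and 2 of 8 markers. These were Amigo2 (-0.14 ± 0.04, adjusted p = 0.120, edgeR) and Rgs14 (-0.06 ± 0.03, adjusted p = 0.271), both of CA2 and lower in cohort 2. Pcp4, the remaining CA2 marker, changed by -0.03 ± 0.04 (adjusted p = 0.780). Amigo2 averaged 18.5 ± 1.40 CPM (SD, n = 14) in cohort 1, above the mean of cohort 2 by more than that SD.

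Beyond the groups, libraries of the same group differed more in most of these markers than in other genes of similar level. The residual SD of log2 CPM, after removing group and cohort, was ranked among the 501 genes nearest in mean level, the gene itself included. It was 0.196 for Prox1, at percentile 99.0 of those genes, and 0.146 for Wfs1, at percentile 98.0. Pou3f1 and C1ql2 had an SD of 0.136 each, at percentiles 96.0 and 96.6. Pcp4 came to 0.107 (percentile 90.2) and Rgs14 to 0.0717 (percentile 75.0). Amigo2 was the exception at 0.0921, percentile 3.79 of the genes of its level. Fibcd1, at 0.608, lay at percentile 61.7, in a range where counting error is large.

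Residual values of the markers were then correlated across the 30 libraries, as a description. Libraries share depth and dissection across all genes, so a correlation does not separate these from the field itself. Values within a cohort rest on 14 libraries in cohort 1 and 16 in cohort 2, with 8 group means removed. In cohort 1 each female group on western diet is 1 library, which adds nothing to r. Such values are imprecise, and differences in r between the cohorts were not tested. Wfs1 and Pou3f1 varied together (Pearson r = 0.82, Spearman rho = 0.73), with r = 0.93 in cohort 1 and 0.86 in cohort 2. Both also varied with Rgs14 (r = 0.63 and 0.66). Pou3f1 and Prox1 went opposite ways, with r = -0.60 over both cohorts, -0.88 in cohort 1 and -0.33 in cohort 2. Prox1 and C1ql2, the dentate pair, had r = 0.19 over both cohorts, 0.51 in cohort 1 and 0.42 in cohort 2. C1ql2 had r = 0.02 with Wfs1, but -0.64 in cohort 1 and 0.53 in cohort 2. With Pou3f1 its r was 0.00, but -0.53 in cohort 1 and 0.39 in cohort 2. The CA2 markers did not move as a block: Rgs14 and Amigo2 had r = 0.56, while Pcp4 had r = 0.23 with Rgs14 (-0.44 in cohort 1, 0.72 in cohort 2) and 0.03 with Amigo2.

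**Figure D4:**
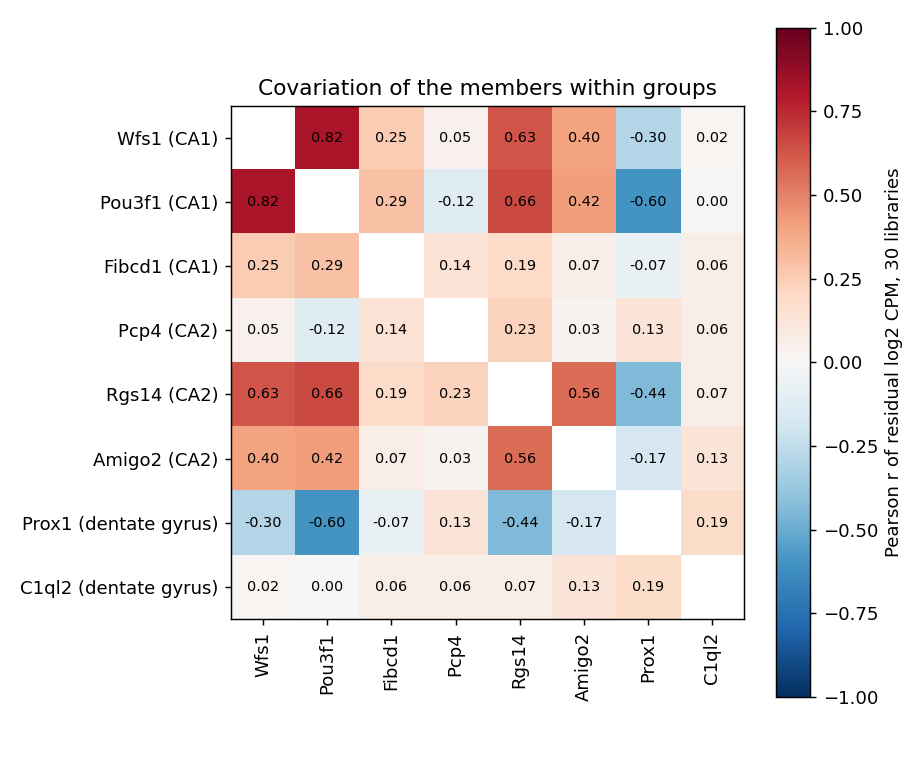
Pearson correlations between the 8 markers of residual log2 CPM, after removing group and cohort, over 30 libraries. The strongest pair is Wfs1 with Pou3f1 (0.82) and the lowest value is Pou3f1 with Prox1 (-0.60); the C1ql2 row lies between 0.00 and 0.19.

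For each marker the 3 genes most like it were named, by r over 30 libraries among all genes tested. For Wfs1 they were Mpped1 (0.85), the receptor phosphatase gene Ptpru (0.84) and Pou3f1 (0.82), and for Pou3f1 they were Wfs1 (0.82), Ptpru (0.78) and Mpped1 (0.78). Wfs1 and Pou3f1 were thus each among the 3 genes most like the other out of 12547, whereas Fibcd1, the remaining CA1 marker, ranked 1720th for Wfs1 and 1315th for Pou3f1. For Prox1 they were the synaptic scaffold gene Tanc1 (0.86), the adenylyl cyclase gene Adcy1 (0.85) and the actin-binding neurabin gene Ppp1r9a (0.85). For C1ql2 they were Ncdn, which encodes neurochondrin (0.84), the secreted olfactomedin gene Olfm1 (0.83) and the potassium channel gene Kcnc4 (0.83). In cohort 1 the C1ql2 values fell to 0.27 for Ncdn and 0.54 for Olfm1, while Kcnc4 kept 0.89.

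For Pcp4 the 3 genes were the neuropeptide genes Cartpt (0.78) and Trh (0.76) and Lbhd2 (0.78). For Rgs14 they were the actin regulators Arpc2 (0.79) and Pfn2 (0.75) and Ccsap (0.73). For Amigo2 they were Ldb1 (0.73), Faf2 (0.70) and Taf5 (0.69). For Fibcd1 they were Dxo, Ccdc17 and Phf11, whose r of 0.70, 0.70 and 0.69 fell to 0.49, 0.48 and 0.54 without the 2 libraries farthest from the median of Fibcd1. No other CA2 marker of the set was among the 3 genes nearest to any CA2 marker.

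Set against summed lists, Wfs1 followed the other CA1 markers (r = 0.86; 0.85 in cohort 1 and 0.81 in cohort 2), as did Pou3f1 (0.78). For Prox1 the r with the other dentate granule cell markers was 0.62 over both cohorts, and 0.86 and 0.81 within them. For C1ql2 it was 0.57, below its r with the summed pan-excitatory neuron genes (0.69, with -0.19 in cohort 1 and 0.82 in cohort 2). With the summed C1q-like family and receptor it was 0.75, but C1ql3 is in both that list and the dentate list. Gene by gene, where abundant genes weigh no more than others, these values were lower. The median r over 4 other CA1 markers was 0.53 for Wfs1 and 0.42 for Pou3f1, all positive. For Prox1 the median r was 0.27 over 5 other dentate markers, all positive. Gene by gene the order of the lists was different for C1ql2. Its median r was 0.45 over 5 other dentate markers (4 positive) and 0.41 over 6 pan-excitatory genes. Over 6 genes of the C1q-like list it was -0.12 (2 positive). For Pcp4 the r was 0.18 with the summed other CA2 markers and 0.71 with the summed immature granule cell markers. With the summed thalamus markers it was 0.50 (0.88 in cohort 1 and 0.16 in cohort 2), with a Spearman rho of 0.32. Without the 2 libraries farthest from the median of the residual thalamus sum, that r fell to 0.28. Taken gene by gene, the median r of Pcp4 was 0.29 over 7 other CA2 markers, all 7 positive. It was 0.25 over 6 immature granule cell markers and 0.26 over 6 thalamus markers, again all positive. C1ql2 ran against the oligodendrocyte markers (r = -0.66), and each of the 8 gave a negative r, from -0.54 for Opalin to -0.78 for Mog. The r with their sum was -0.86 in cohort 2 and -0.09 in cohort 1, a difference that was not tested.

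**Figure D5:**
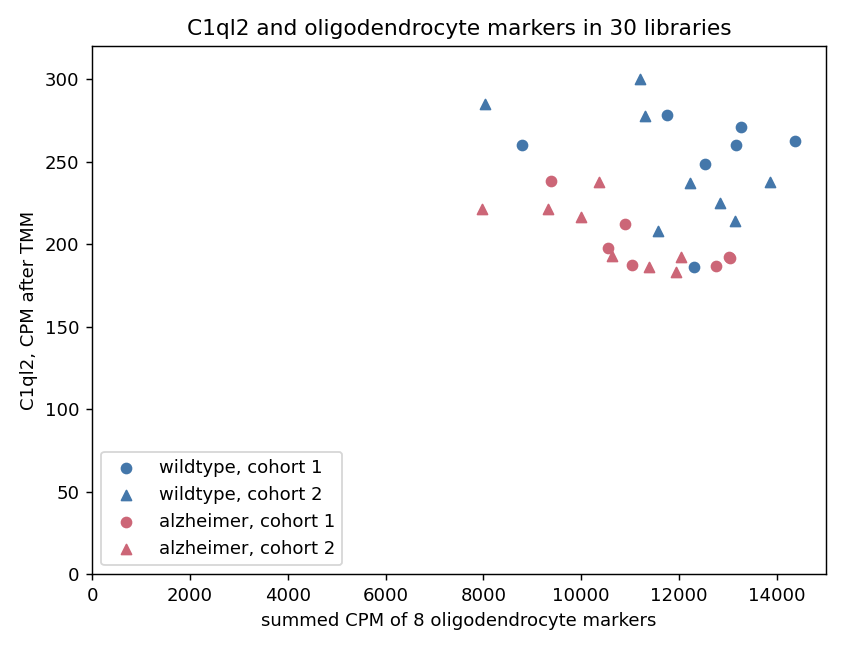
C1ql2 in CPM after TMM against the summed CPM of 8 oligodendrocyte markers, 1 point per library, with genotype and cohort shown by colour and shape. Alzheimer libraries lie between 183 and 238 CPM of C1ql2 at sums from 7981 to 13047 CPM, and wildtype libraries between 186 and 300 CPM at sums from 8038 to 14377 CPM.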

How the data were processed

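The 30 libraries hold dorsal hippocampus RNA of rats, prepared from frozen tissue by selection of polyadenylated RNA, per the labels' protocols. The authors deposited unscaled counts: whole numbers for each gene symbol and library, with unequal totals. Per the submitters' processing notes, the tools were cutadapt, without a version, and the aligner STAR 2.7.0a. Not given in the sources used here: how reads were counted, the strand setting, the genome build and its annotation. A gene's counts can therefore include reads of an overlapping or antisense gene.

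The model, in edgeR 4.0.16 (R 4.3.3), had a coefficient for each group of sex, genotype and diet (3 or 4 libraries each) and a cohort term. Genes passed filterByExpr on the groups (minimum count 10, minimum total 15), and library sizes were scaled by TMM. Each of 15 contrasts used the two-sided quasi-likelihood F test, with Benjamini-Hochberg adjustment over all genes and a threshold of 0.05. The SE was taken as the absolute log2 change divided by the square root of F. Correlations used residual log2 CPM with a prior count of 2. The scripts were tested on simulated data.

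Alternatives were DESeq2 1.42.0, other size factors, no low-count filter, no cohort term, each cohort alone, a prior count of 0.5 for correlations, and leaving out single libraries or the 3 highest in choroid plexus markers. A covariate of oligodendrocyte markers was added after seeing the data. The text names all 9 members, App, called list members in genotype, diet or sex (at most 4 per list and contrast), and the 3 genes most correlated with each member. Mpped1 in females and the compared group pairs were chosen after their values were seen, as were C1ql3, Adgrb3, Opalin and Mog. Members and lists were chosen with earlier results of these data known. Lists of other cell types are given as counts, without their called genes. Some items are not reported here.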

Additional observations from a re-analysis of the deposited data

Results flagged for a closer look

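In each group of 4 libraries the highest or lowest library was compared with the rest, for 48 pairs of gene and group. In 3 pairs it stood far from the others (Dixon's criterion); chance alone gives about 1 pair in 20. Rgs14 was 248 CPM in male alzheimer on chow replicate 30 and 295 to 305 CPM in the other 3 libraries. That library is also 1 of the 3 highest in choroid plexus markers, and the part of this in its Rgs14 level was not tested. C1ql2 was 238 CPM in female alzheimer on chow replicate 19 and 187 to 192 CPM in the others. Fibcd1 was 1.06 CPM in female wildtype on chow replicate 13, from 24 counts, and 0.371 to 0.487 CPM in the others.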

How the results depend on the processing

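The count of markers called for genotype was 3, and 1 (C1ql2) in cohort 1 alone. For sex it was 1, and 2 without the low-count filter (Pou3f1 and C1ql2), 0 without the cohort term, 0 in cohort 2 alone and 0 without the 3 libraries highest in choroid plexus markers. For genotype on chow it was 1, and 2 without the filter and 0 in cohort 2 alone. For genotype on western diet it was 1, and 3 without the filter (Wfs1, Prox1 and C1ql2), 2 with the oligodendrocyte covariate, 0 in cohort 1 alone and 0 in cohort 2 alone. For genotype in females it was 2, and 0 in cohort 1 alone. Leaving out each library in turn gave 3 to 4 for genotype, 0 to 2 for sex, 1 to 2 on chow, 0 to 2 on western diet, 1 to 1 in males and 1 to 2 in females. Wfs1 joined on chow without replicate 25 (adjusted p = 0.0177), and on western diet without replicate 2, 3, 23 or 25. The cause of these shifts was not tested. Every other contrast gave 0 markers under all alternatives, and no called marker changed sign.

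Over all genes, the count for genotype was 1007, and 72 in cohort 1 and 573 in cohort 2. For sex it was 105, and 254 without the filter, 241 by DESeq2 and 17 in cohort 2. For genotype in males it was 157, and 247 by DESeq2 and 28 in cohort 1. In females it was 322, and 47 in cohort 1 and 141 in cohort 2. On chow it was 113, and 29 and 43 in the cohorts. On western diet it was 398, and 40 and 185 in the cohorts and 230 with the oligodendrocyte covariate. For diet by sex it was 154, and 242 without the filter, 268 by DESeq2, 35 and 32 in the cohorts and 92 with the covariate. For diet in males it was 16, and 71 without the filter, 62 by DESeq2 and 0 in cohort 2. For diet in females it was 23, and 60, 56 and 2 in the same order, and 11 without the cohort term. For diet it was 1, and 3 by DESeq2, 19 in cohort 1 and 0 in cohort 2. For cohort it was 11, and 113 without the filter, 137 by DESeq2 and 43 with the covariate. For genotype by diet, genotype by sex and diet in wildtype it was 0, and 12, 9 and 38 in cohort 1. For diet in alzheimer it was 0, and 3 without the filter, 3 by DESeq2 and 1 with the covariate. Without the 3 libraries highest in choroid plexus markers it was 23 for sex, 103 for genotype in males, 188 for genotype in females, 0 for diet and 0 for cohort, and within 1.5 times its value for the other contrasts.

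With 1 library left out, the count over all genes ran from 19 (without replicate 11) to 181 (without 9) for sex, from 79 (12) to 249 (8) for diet by sex, and from 229 (17) to 471 (1) for genotype on western diet. It ran from 97 (4) to 311 (8) for genotype in males, from 164 (17) to 356 (8) in females, and from 9 (1) to 53 (28) for diet in males. For diet in females it was 1 without replicate 9, 12, 15, 18 or 19 and 36 without 14. For cohort it was 0 without replicate 1, 3, 4 or 9 and 43 without 16. For diet it reached 2 without replicate 3, 12 or 30, and for diet in alzheimer 3 without replicate 3 or 16. For genotype it ran from 817 to 1270 and on chow from 86 to 169, each within 1.5 times its value.

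No paired analysis was possible because the replicate numbers in the labels run from 1 to 30 and no number is shared between groups.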
